A study of Mus musculus with 96 samples.

Results

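Cathepsins are the proteases of the lysosome, the acidic compartment in which cells break down proteins. Expression of 10 of their genes was followed here: Ctsa, Ctsb, Ctsc, Ctsd, Ctsf, Ctsh, Ctsk, Ctsl, Ctss and Ctsz. They were taken by gene symbol from the 40202 genes listed in each count table, and all 10 were found. The libraries were made from single cells of the mouse lung line C10, labelled as alveolar type II epithelial. There were 48 libraries of untreated cells, the control group, and 48 of cells treated with 10 nM RO-3306 for 36 h. RO-3306 is sold as an inhibitor of CDK1, the kinase that drives entry into mitosis. The dose is printed as labelled: it is low for this compound, and its unit could not be checked from the files. The series title names nanoSPLITS, which divides the contents of a cell for RNA and protein measurement, and only the RNA libraries were analysed here. Both groups came from the same line grown in the same medium, and the labels give no further allele or agent and no separate cultures. Each group was therefore 1 sample, and no difference below has a replicate check or a test.

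Most cathepsins are made as inactive precursors, tagged with mannose 6-phosphate and carried by receptors from the Golgi to the lysosome, where acid and other proteases activate them. They fall into 3 chemical classes. Ctsb, Ctsc, Ctsf, Ctsh, Ctsk, Ctsl, Ctss and Ctsz encode cysteine proteases, Ctsd encodes an aspartic protease, and Ctsa encodes a serine carboxypeptidase. In the lung, alveolar type II cells are known for Ctsh, which helps to mature surfactant protein, and macrophages for Ctss. Ctsk is best known from osteoclasts.

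A minimum of 50000 counts and 1000 detected genes per library left 29 control and 37 RO-3306 cells. Their totals ranged from 59979 to 6457215 counts in control and from 295005 to 5321880 in RO-3306. Library titles hold 1 of the letters A to D, which the labels do not explain. The 4 sets they define served to check the sign of a difference and are not replicates. At an equal depth of 639000 reads the median cell held 4595 genes in control and 5975 in RO-3306, and the mitochondrial share of counts had medians of 3.40% and 4.42%. The alveolar type II genes Sftpa1, Sftpc and Sftpd, which encode surfactant proteins, were at 0 in all kept cells, and Sftpb had counts in 1 RO-3306 cell. The labelled cell type was thus not seen in its defining genes, and the cells are called C10 below.

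Levels are given as CPM, counts scaled to the same library total, either for each cell or for the summed counts of a group. Of the 10 members, 5 averaged 5 CPM or more across the groups: Ctsa, Ctsb, Ctsd, Ctsl and Ctsz. Ratios between the groups are given on the log2 scale, from summed levels with 1 CPM added to each, RO-3306 over control. A gene is called past the fold when it reached that mean, its log2 ratio was at least 1 in size, which is 2-fold, and the sign was the same in the 4 lettered sets. All 5 of these members were past the fold in the higher direction and 0 in the lower. Across all 9374 genes with that mean, 7.23% were past it in the higher direction and 6.43% in the lower. The members were chosen with earlier results of these data known, so these shares stand beside them as a description and not as a test. The median log2 ratio of the 5 members was 1.19, from 1.06 to 1.93, beside a median of -0.22 over all genes compared. Of the remaining members, Ctss was low in both groups, Ctsf was found in RO-3306 cells, and Ctsc, Ctsh and Ctsk had at most 1 count in a group.

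The sequences upstream of 4 of these 5 genes are shown because the genes were higher together and many lysosomal genes are known to share a promoter element. That element contains CACGTG, the letters read by TFEB and related factors, which drive lysosomal genes. Each line gives the 250 bases before an annotated start of the gene, from RefSeq on GRCm38.p6, read along the gene, with CACGTG in capitals.
Ctsa (chr2:164833523-164833772, plus strand): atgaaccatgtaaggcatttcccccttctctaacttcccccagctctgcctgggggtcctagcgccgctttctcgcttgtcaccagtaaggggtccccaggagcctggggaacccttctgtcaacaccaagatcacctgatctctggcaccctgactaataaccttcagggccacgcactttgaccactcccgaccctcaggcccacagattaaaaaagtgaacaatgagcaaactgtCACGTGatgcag
Ctsd (chr7:142387828-142388077, minus strand): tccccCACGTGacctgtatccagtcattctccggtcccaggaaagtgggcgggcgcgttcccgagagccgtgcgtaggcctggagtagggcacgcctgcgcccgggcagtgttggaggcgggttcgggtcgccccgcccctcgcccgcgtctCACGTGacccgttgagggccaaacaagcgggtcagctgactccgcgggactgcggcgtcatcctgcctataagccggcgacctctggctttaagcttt
Ctsl (chr13:64370521-64370770, minus strand): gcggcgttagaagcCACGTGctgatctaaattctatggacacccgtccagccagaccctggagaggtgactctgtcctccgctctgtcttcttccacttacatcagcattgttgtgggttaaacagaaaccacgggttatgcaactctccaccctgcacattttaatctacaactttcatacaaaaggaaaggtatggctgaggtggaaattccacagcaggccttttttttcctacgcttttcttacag
Ctsz (chr2:174439040-174439289, minus strand): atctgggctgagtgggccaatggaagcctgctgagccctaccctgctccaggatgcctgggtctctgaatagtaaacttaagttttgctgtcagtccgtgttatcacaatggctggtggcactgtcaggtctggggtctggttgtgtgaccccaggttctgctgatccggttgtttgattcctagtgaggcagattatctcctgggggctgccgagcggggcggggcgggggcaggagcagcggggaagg
RefSeq windows were found for 8 of the 10 members, not for Ctsb or Ctsh, and Ctsa had 2 windows, of which the one with a match is printed. The other Ctsa window, chr2:164832622-164832871, lies upstream of the printed one and held no match. CACGTG, which reads the same on both strands, occurred in 1978 of 32851 windows of this length, or 6.02%. Among the members it occurred upstream of Ctsa, in 1 of its 2 windows, and of Ctsd, Ctsf and Ctsl. The Ctsd window held 2 copies, which begin 245 and 98 bases before the start, and 0.429% of all windows held 2 or more. The copy of Ctsa begins 12 bases before the more downstream of its 2 starts. That of Ctsl begins 236 bases before the start and that of Ctsf 79 bases before it. The windows of Ctsz, Ctsk, Ctss and Ctsc held none. The antioxidant response element core TGACNNNGC, searched on both strands, was in 10.2% of all windows, and among the members in those of Ctsd and Ctsz. The longer palindrome known as the CLEAR element, which contains CACGTG and was also searched on both strands, was in 79 windows, or 0.240%, and in 0 of the 9 windows of the members. A match of letters is a description of the window and not a measured binding site.

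**Figure D1:**
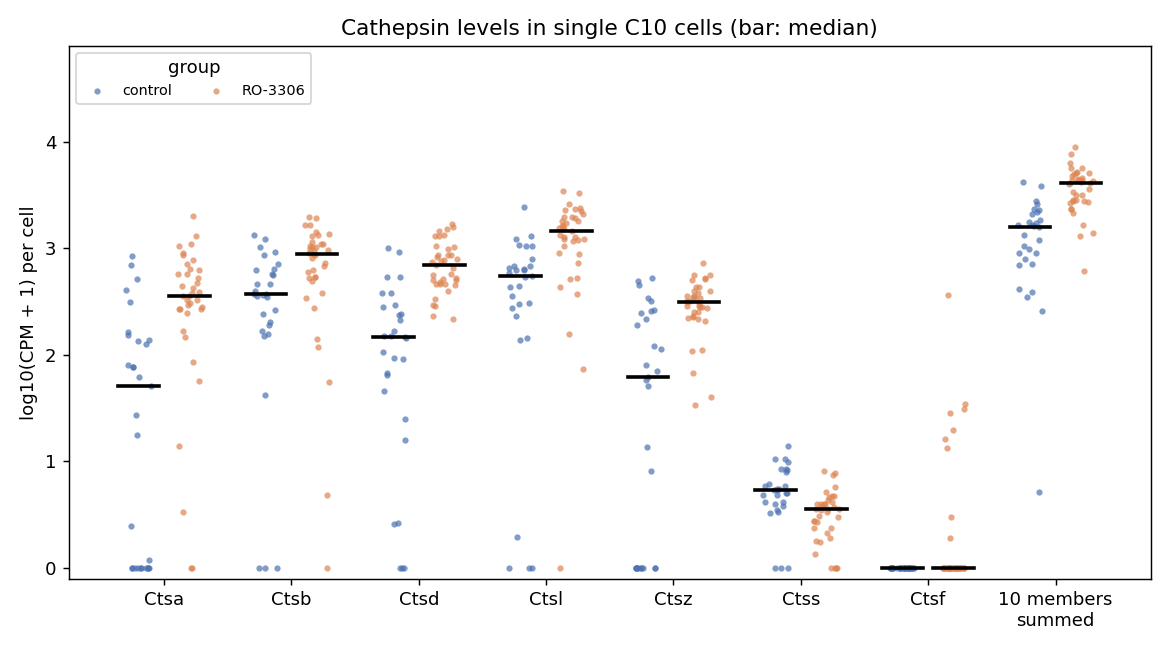
Level of 7 cathepsins and of all 10 summed in each kept cell, as log10(CPM + 1) on the vertical axis, for 29 control and 37 RO-3306 cells; black bars are medians. The medians of Ctsa, Ctsb, Ctsd, Ctsl and Ctsz lie higher in RO-3306, that of Ctss lies lower, and the cells of the groups overlap for every gene.

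Ctsd, the main aspartic protease of the lysosome, had the highest ratio of the 5. Its per-cell level in control ran from 0 through a median of 147 to 999 CPM, and in RO-3306 from 215 through 694 to 1710 CPM. The lowest RO-3306 cell thus lay above the control median, and 19 of the 29 control cells lay below every RO-3306 cell. From summed counts Ctsd was at 213 CPM in control against 813 CPM in RO-3306, 3.82-fold higher (95% interval 3.75 to 3.89). Such intervals cover counting error only, and the reads carry no molecular identifiers, so they include PCR copies. The log2 ratio was 1.93 over all cells and 2.19, 1.87, 2.17 and 1.54 in sets A to D. Ctsd was found in 26 of 29 control cells and in 37 of 37 RO-3306 cells. The gene lies on the minus strand of chromosome 7 at 141929647 to 141941564 (GRCm39), and no other listed gene overlaps it.

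Ctsa encodes protective protein, a carboxypeptidase that also holds the sialidase Neu1 and the galactosidase Glb1 in a complex. Per cell, Ctsa ran from 0 through a median of 50.02 to 840 CPM in control and from 0 through 357 to 2016 CPM in RO-3306. Its cells overlapped widely, but 33 of 37 RO-3306 cells were above the control median. Summed, it was 3.24-fold higher in RO-3306 (3.17 to 3.31), at 515 CPM against 159 CPM. The log2 ratio was 1.69 over all cells, 1.90, 1.06 and 1.05 in sets A, B and C, and 3.40 in set D, where the 5 control cells gave 68.3 CPM. Without set D the log2 ratio of Ctsa was 1.39. Of the control counts, 32.0% came from the single cell B4, and without the top cell of each group the log2 ratio was 1.98. Ctsa lies on chromosome 2 at 164674792 to 164682952. Neurl2 and Pltp cover 27.4% of its span, and by the counting tool's defaults reads that overlap 2 genes are uncounted. Neu1 and Glb1, singled out after their values were seen, were at 22.6 and 10.8 CPM in control and 69.5 and 17.9 CPM in RO-3306. Neither was past the fold: their log2 ratios were 1.58 and 0.68, and had the opposite sign in set D, at -0.43 and -1.34.

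Among the cysteine proteases, Ctsl, a broad endopeptidase, had the most counts of any member in both groups. Its per-cell level ran from 0 through a median of 550 to 2428 CPM in control and from 0 through 1454 to 3455 CPM in RO-3306. Only 1 of 29 control cells lay above the RO-3306 median, while 30 of 37 RO-3306 cells lay above the control median. From summed counts Ctsl was at 674 CPM in control against 1544 CPM in RO-3306, 2.29-fold higher (2.27 to 2.31). Its log2 ratios were 1.32, 1.28, 0.47 and 1.12 in sets A to D, against 1.19 over all cells. Set C had both the highest control level of the 4 sets, 964 CPM, and the lowest RO-3306 level, 1337 CPM. Ctsl lies on the minus strand of chromosome 13 at 64509704 to 64518586. Its count was fractional in 71.0% of the libraries that had one, which marks reads split with other genomic sites.

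Ctsb, a cysteine protease with both endopeptidase and peptidyl-dipeptidase activity, ran from 0 through a median of 372 to 1340 CPM in control cells. In RO-3306 cells it ran from 0 through 878 to 1956 CPM, and 30 of 37 were above the control median. Summed, it was at 416 CPM in control against 952 CPM in RO-3306, 2.29-fold higher (2.26 to 2.32). It was uneven across sets, with log2 ratios of 1.80, 1.19, 0.36 and 0.46 in A to D and 1.19 over all cells. The control sets spread from 251 CPM in A to 827 CPM in D, while the RO-3306 sets lay between 790 and 1135 CPM. Ctsb dropped under the 2-fold limit in 3 alternatives: 0.91 without set A, 0.92 from the mean of per-cell CPM and 0.98 after thinning. The gene lies on chromosome 14 at 63359911 to 63383372, and Fdft1 covers 3.30% of its span.

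Ctsz encodes cathepsin X, a carboxypeptidase that removes residues from the carboxyl end of proteins. It ran from 0 through a median of 60.7 to 522 CPM per cell in control and from 32.7 through 313 to 727 CPM in RO-3306. Counts of Ctsz were found in 19 of 29 control cells and in all 37 RO-3306 cells, of which 35 were above the control median. Summed, it was at 147 CPM in control against 308 CPM in RO-3306, 2.10-fold higher (2.05 to 2.15). It was even across sets, at 129 to 168 CPM in the control sets and 283 to 329 CPM in the RO-3306 sets, with log2 ratios of 1.27, 0.92, 0.93 and 1.30. Its log2 ratio over all cells, 1.06, was near the limit, and was 0.96 without set A. The median log2 ratio of genes with transcripts as short as that of Ctsz was 0.18, while it was -0.80 for genes with transcripts as long as the longest of Ctsl. Relative to genes of like mRNA length, Ctsz was thus higher by 0.89, Ctsa by 2.18, Ctsb by 1.86 and Ctsd by 1.98. For Ctsl the value depends on the transcript taken: it was 1.99 with the longest and 1.25 with the annotated principal one. Ctsz lies on the minus strand of chromosome 2 at 174269287 to 174280832.

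For Ctsa, Ctsd, Ctsl and Ctsz, each RO-3306 set was higher than each control set, and for Ctsb the sets overlapped. Of all 9374 genes compared, 6.84% had each RO-3306 set above each control set and 5.01% had each below.

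**Figure D2:**
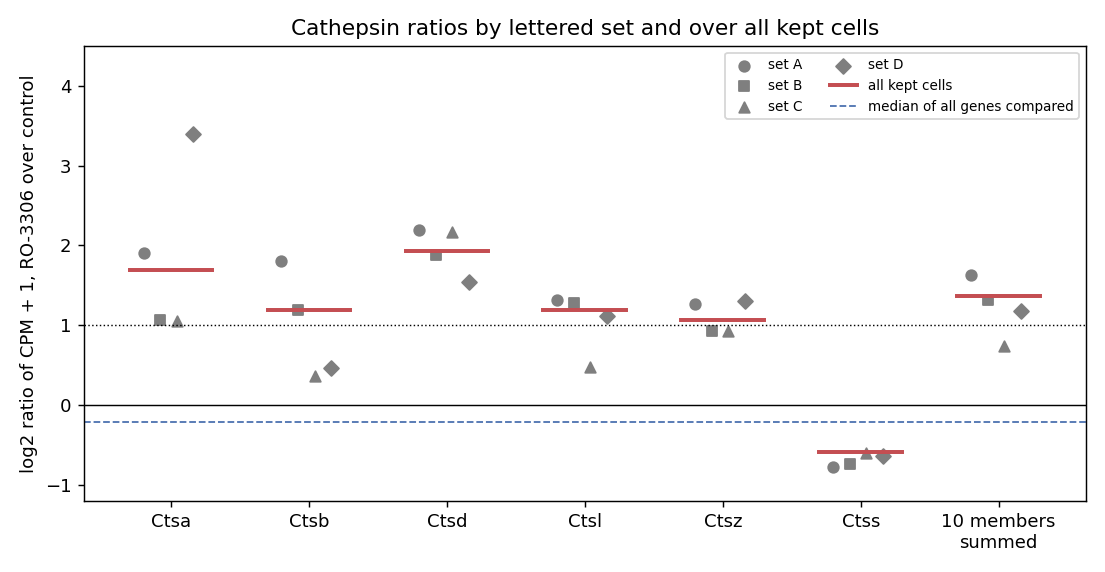
Log2 ratio of CPM + 1, RO-3306 over control, on the vertical axis for 6 cathepsins and the 10 summed; grey marks are the 4 lettered sets, red bars all kept cells, the dotted line the 2-fold limit and the dashed line the median of all genes compared, -0.22. All marks of the 5 abundant members lie above 0, with Ctsb between 0.36 and 1.80 and Ctsa reaching 3.40 in set D, and all 4 of Ctss lie below it.

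The other 5 members averaged under 5 CPM. Ctss, known for antigen processing in macrophages, was counted at a low level in most cells, in 26 of 29 control and 33 of 37 RO-3306 cells. Per cell it ran from 0 through a median of 4.42 to 13.1 CPM in control and from 0 through 2.56 to 7.12 CPM in RO-3306. These levels rest on medians of 9.2 and 5.2 counts per cell. Summed, Ctss was at 4.86 CPM in control against 2.90 CPM in RO-3306, a ratio of 0.597 (0.505 to 0.703), with log2 ratios of -0.78, -0.75, -0.61 and -0.64 in sets A to D. Its mean was below 5 CPM, so it was not among the genes compared by the fold rule. The counts of Ctss were fractional in 71.2% of libraries with one, and the gene span of 29620 bases was counted with its introns.

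Ctsf, a cysteine protease gene on chromosome 19 at 4905153 to 4910946, had 0 counts in the 29 control cells and 854 counts in RO-3306. Those counts came from 9 of 37 cells, and 497 of them, or 58.2%, from the single cell B6, at 367 CPM. In the other 8 cells the level lay between 0.899 and 33.5 CPM. The summed level was 9.20 CPM. That is 202-fold over 0.0454 CPM, or 3 counts over the group, taken as the control limit, and the exact 95% interval begins at 164-fold. Both values treat reads as independent and cover counting error only. With the counts in 9 cells, neither is a lower bound on the difference between cells of the groups. Without the top cell of each group the log2 ratio of Ctsf was 2.29, against 3.35 with all cells. Ctsf cells occurred in each of the 4 sets, and a count of 0 in 29 cells allows up to 10.3% of control cells to hold a count by the limit of 3 counts, or 11.9% by the exact binomial interval. Its mean of 4.60 CPM was just under the 5 CPM limit. Ctsc, which activates granule proteases, had 1 count in each group, and Ctsk had 0 and 1. Ctsh had 0 counts in all kept cells, which allows up to 10.3% of control and 8.11% of RO-3306 cells to hold a count. Ctsk and Ctss are neighbours on chromosome 3, with 17398 bases between them. Of the members just around the limit of 5 CPM, Ctsf and Ctss had means of 4.60 and 3.88 CPM, and Ctsz, the lowest inside it, 227 CPM.

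Summed over the 10 genes, cathepsins took 0.161% of all counts in control and 0.414% in RO-3306. Per cell the sum ran from 4.13 through a median of 1575 to 4180 CPM in control, and from 609 through 4113 to 8887 CPM in RO-3306. In RO-3306, 34 of 37 cells lay above the control median and 16 above the highest control cell. The summed levels were 1613 CPM (1604 to 1623) and 4144 CPM (4131 to 4157), a 2.57-fold difference (2.55 to 2.59). The log2 ratio of the sum was 1.36, and 1.63, 1.32, 0.74 and 1.17 in sets A to D. The make-up of the sum differed little in order: Ctsl held 41.8% of it in control and 37.3% in RO-3306, and Ctsb 25.8% and 23.0%. The share of Ctsd was 13.2% in control and 19.6% in RO-3306, and that of Ctsa 9.85% and 12.4%.

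Counts favour long transcripts, so levels were compared between members per kilobase of mRNA. With the longest coding transcript of each gene, control levels were 109 CPM per kb for Ctsl, 102 for Ctsz, 99.9 for Ctsd, 87.7 for Ctsb, 43.6 for Ctsa and 3.58 for Ctss. In RO-3306 they were 382 for Ctsd, 250 for Ctsl, 214 for Ctsz, 201 for Ctsb, 141 for Ctsa, 4.65 for Ctsf and 2.14 for Ctss. The order at the top depends on the transcript taken for Ctsl. Its longest has 6168 bases, and with the annotated principal transcript of 1971 bases Ctsl stood first in both groups, at 342 and 783 CPM per kb. It also stood first per kb of gene span, at 75.9 and 174 CPM, but the order below it changed. In control Ctsa was then at 19.5, Ctsd at 17.8, Ctsb at 17.7 and Ctsz at 12.7 CPM. In RO-3306 Ctsd was at 68.2, Ctsa at 63.1, Ctsb at 40.6 and Ctsz at 26.7 CPM. Neighbours in these orders overlapped from cell to cell.

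RO-3306 cells also held the members together more often. At equal depth, all 5 of Ctsa, Ctsb, Ctsd, Ctsl and Ctsz had a count in 9 of 25 control cells and in 32 of 34 RO-3306 cells. These are 36.0% (exact binomial 95% interval 18% to 57.5%) and 94.1% (80.3% to 99.3%), with counting error only. At full depth this was so in 11 of 29 and 34 of 37 cells. After thinning, Ctsz was found in 16 of 25 control cells and all 34 RO-3306 cells, and Ctsa in 17 and 33 cells. RO-3306 cells also held more genes of any kind at equal depth, with medians of 5975 against 4595. No such share was computed for other genes, and the part of genes per cell in it was not tested. Among cells with at least 4500 genes at equal depth, 13 control and 33 RO-3306, the medians were 168 and 749 CPM for Ctsd, 79.0 and 376 CPM for Ctsa, and 69.3 and 313 CPM for Ctsz. In the same cells they were 627 and 1551 CPM for Ctsl and 353 and 898 CPM for Ctsb. In these cells, a subset chosen after seeing the data, the log2 ratio of the sum was 1.42.

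**Figure D3:**
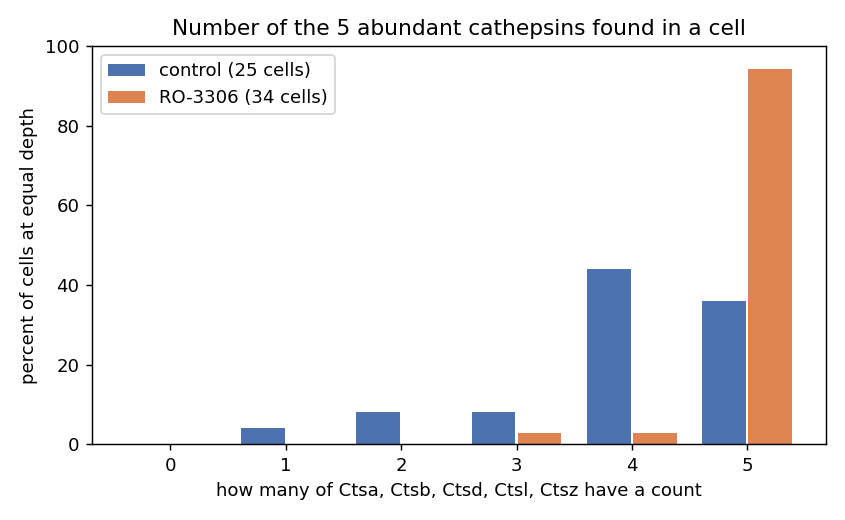
Percent of cells on the vertical axis by how many of the 5 abundant cathepsins had a count, after thinning to equal depth, in 25 control and 34 RO-3306 cells. Most RO-3306 cells, 32 of 34, held all 5, and 9 of 25 control cells did.

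Across single cells some pairs of members varied together, and no coefficients of other gene pairs are given for comparison. Spearman coefficients between pairs of the 5 at equal depth had a median of 0.17 over 10 pairs in 25 control cells, from -0.16 to 0.68, and of 0.33 in 34 RO-3306 cells, from 0.15 to 0.62. In control the highest coefficient was between Ctsb and Ctsl at 0.68, where RO-3306 cells gave 0.23. In RO-3306 the highest was between Ctsa and Ctsb at 0.62, followed by Ctsb and Ctsd at 0.57. The corresponding control values were 0.15 and 0.05. The values of a cell share 1 library, so these coefficients describe the cells and were not compared between groups. Within groups, the cathepsin sum had Spearman coefficients of -0.44 in control and -0.49 in RO-3306 with the mitochondrial share, and of 0.06 and 0.23 with genes per cell. The part of the mitochondrial share in the results was not tested.

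**Figure D4:**
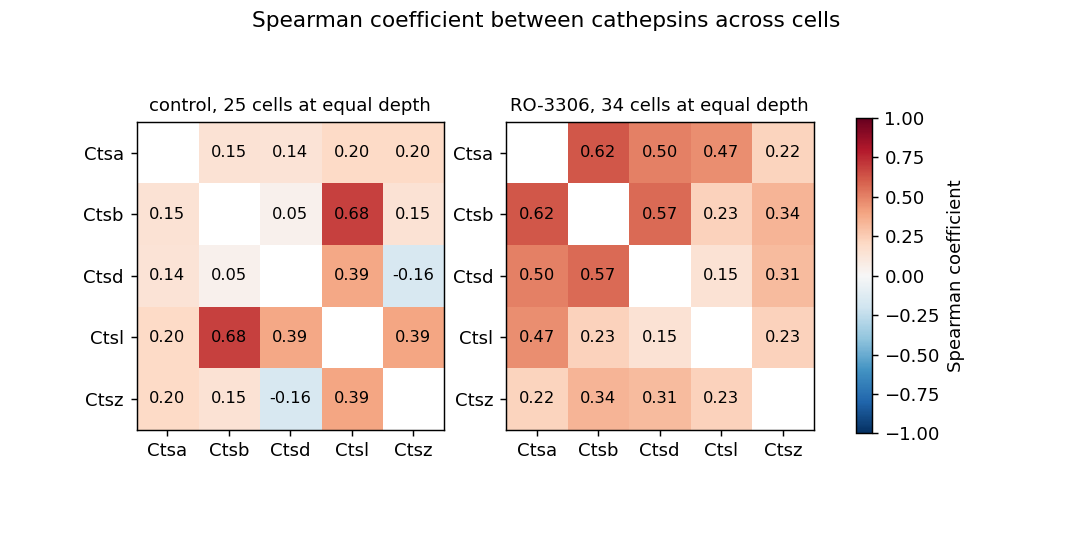
Spearman coefficient, shown by color and number, between each pair of the 5 abundant cathepsins across 25 control cells (left) and 34 RO-3306 cells (right) at equal depth. Ctsb with Ctsl is highest in control at 0.68 and Ctsa with Ctsb is highest in RO-3306 at 0.62.

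The genes whose levels varied most like a member were sought among 3701 genes averaging 50 CPM or more, by the mean of the Spearman coefficients within 25 control and 34 RO-3306 cells. For Ctsl these were Blvrb at 0.54, Fubp3 at 0.53 and Lamp2, a lysosomal membrane protein, at 0.51. Blvrb was at 112 and 453 CPM in control and RO-3306, Lamp2 at 192 and 616 CPM, and Fubp3 at 80.2 and 41.7 CPM. For Ctsd they were Itm2c at 0.54, Sh3bp1 at 0.51 and Aifm1 at 0.47, and for Ctsz Abcb1b at 0.54, Hdac1 at 0.49 and Grhpr at 0.41. These are the highest of many coefficients over few cells and serve as a description only.

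Genes around the cathepsins were read from lists of their pathway. The lists of inhibitors, sorting and activation, partner enzymes and regulators were chosen with earlier results of these data known. Of 13 other cathepsin genes, 9 were at 0 in all kept cells and 2 reached 5 CPM. Of these, Ctso was past the fold in the higher direction, with 0.0151 CPM in control, which is 1 count, and 10.3 CPM in RO-3306, a ratio of 681 (122 to 26945). As with Ctsf, it was found in 9 of 37 RO-3306 cells, and in 1 of 29 control cells. It reached the mean of 5 CPM only through RO-3306, where 50.2% of its counts came from 1 cell. Ctsw was at 2.39 and 13.9 CPM, but its log2 ratio of 2.14 was -0.02 in set C, so it was not past the fold. Over all genes compared, 7.23% were past the fold in the higher direction.

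Of 12 listed inhibitors of cathepsins, 7 reached 5 CPM, 2 were past the fold in the higher direction and 0 in the lower, with a median log2 ratio of 0.68. Of all genes compared, 7.23% were past it in the higher direction and 6.43% in the lower. The log2 ratio was above 0 for 5 of the 7 and below 0 for Cst3, at 488 and 432 CPM, and Serpinb9, at 306 and 188 CPM, both singled out after their values were seen. Cstb, which encodes the cytosolic inhibitor stefin B, ran from 350 through a median of 1045 to 1794 CPM in control cells and from 219 through 2654 to 5186 CPM in RO-3306 cells. Its summed level was 1089 CPM in control against 2625 CPM in RO-3306, 2.41-fold higher (2.39 to 2.43). Serpinb1a, an inhibitor of granule serine proteases and of some cathepsins, was at 44.9 and 120 CPM, with counts in 6 of 29 and 28 of 37 cells. Serpinh1, a collagen chaperone of the serpin fold that inhibits no protease, was lower in RO-3306, at 266 and 113 CPM with a log2 ratio of -1.23.

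Of 15 genes for sorting and activation, 14 reached 5 CPM, 2 were past the fold in the higher direction and 0 in the lower, with a median log2 ratio of 0.20. Among all genes compared, 7.23% were past it in the higher direction and 6.43% in the lower. Vps26a, a retromer subunit that returns sorting receptors to the Golgi, was at 53.4 and 275 CPM, a log2 ratio of 2.34. Psap, the precursor of the saposins, was at 13.0 and 30.9 CPM, a log2 ratio of 1.19.

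All 11 partner enzymes found in the count tables reached 5 CPM, 5 were past the fold in the higher direction and 0 in the lower, and their median log2 ratio was 1.32. The shares over all genes compared were 7.23% in the higher direction and 6.43% in the lower. Man2b1, a mannosidase, was at 4.53 and 39.9 CPM, and 98.3% of its control counts came from 1 cell. Hexa, a subunit of the hexosaminidases, was at 37.2 and 181 CPM, and Tpp1, a tripeptidyl peptidase, at 45.9 and 207 CPM.

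Of 9 regulators of lysosomal and stress genes, 6 reached 5 CPM and 0 were past the fold in either direction, with a median log2 ratio of -0.14. Of all genes compared, 7.23% were past it in the higher direction and 6.43% in the lower. A count of 0 among 6 genes is near those shares. Each group is also 1 sample, so no test stands behind that count. Tfeb, which codes for the factor named with CACGTG above and was singled out after its values were seen, was at 14.2 and 13.0 CPM. The related genes on the list averaged under 5 CPM and were found in few cells. Tfe3 was at 1.14 and 3.43 CPM, Mitf at 1.53 and 2.78 CPM and Tfec at 0.0909 and 0.0269 CPM.

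**Figure D5:**
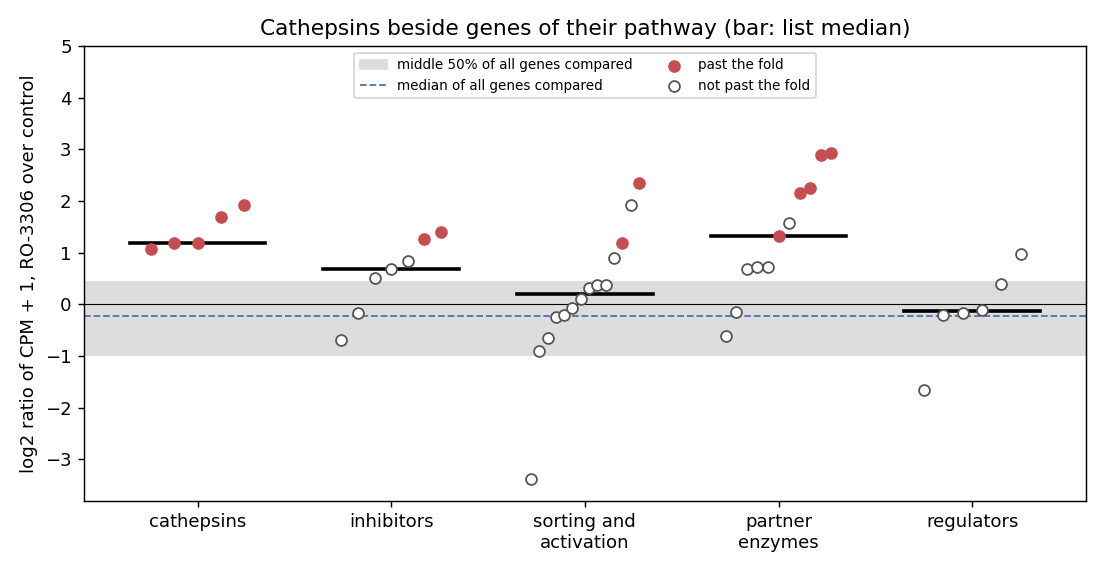
Log2 ratio of CPM + 1, RO-3306 over control, on the vertical axis for the 5 cathepsins and the genes of 4 pathway lists that averaged 5 CPM or more; filled points are past the fold, bars are list medians and the grey band spans the lower to the upper quartile of all 9374 genes compared. The cathepsin median is 1.19 and that of the partner enzymes 1.32, above the medians of 0.68, 0.20 and -0.14 for inhibitors, sorting and regulators.

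Defining markers of macrophages and osteoclasts, cell types rich in cathepsins, were near 0. Of 15 macrophage genes, 7 were at 0 in all kept cells. Cd14 and Lyz2, both under 50 CPM in each group, reached 5 CPM and were not past the fold, and the 15 summed to 58.5 and 64.7 CPM. The summed level of the 5 defining macrophage genes was 2.64 CPM (control) and 0.140 CPM (RO-3306), and Aif1 among them was at 0. Per cell that sum ran from 0 to 43.9 CPM in control and from 0 to 16.2 CPM in RO-3306. Osteoclast genes summed to 0.0492 and 1.09 CPM, and epithelial genes to 1.78 and 0.978 CPM, and none of either list reached 5 CPM. The 9 alveolar type II genes summed to 23.2 and 24.1 CPM, with 5 at 0. Only 2 of them reached 5 CPM, and neither was past the fold. That is too few to set beside the shares over all genes compared, 7.23% higher and 6.43% lower. Mesenchymal genes gave 5656 CPM in the control sum and 2540 CPM in the RO-3306 sum, with per-cell sums of 1329 to 11354 and 1297 to 13894 CPM. Over all genes compared, 6.43% were past the fold in the lower direction. Among the 9 mesenchymal genes, Col1a1 and Col3a1 were, at 714 and 127 CPM and at 603 and 83.6 CPM. The others over 50 CPM were Fn1 at 729 and 182 CPM, Vim at 2427 and 1264 CPM, Acta2 at 1052 and 837 CPM and Cdh2 at 54.9 and 29.8 CPM. The part of the mesenchymal difference in the cathepsin results was not tested.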

How the data were processed

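Single-cell RNA libraries were made with SMART-seq v4 from 48 control and 48 RO-3306 C10 cells and read as single reads of 150 nt, per the labels' protocols. The authors deposited expected counts from featureCounts 2.0.3 for the RefSeq genes of GRCm39, per the file headers. The headers also record that introns count towards a gene and that a read with several sites is shared out in fractions. STAR and FastQC are named in the submitters' processing notes without versions. By the tool's defaults strand was ignored and reads over more than 1 gene span were left out.

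The 10 members and the lists of inhibitors, sorting and activation, partner enzymes, regulators and cell type markers were chosen with earlier results of these data known. Cells of at least 50000 counts and 1000 genes were kept: 29 control and 37 RO-3306, with 66034079 and 92828839 counts. Titles name no culture, so each group was 1 sample and no test was run. Counts were summed per group and scaled to CPM with Python 3.11.15, numpy 2.4.6, pandas 2.3.3 and scipy 1.17.1. Ratios used a pseudocount of 1 CPM, which understates low genes. Intervals are exact Poisson for sums and exact binomial for ratios and shares, at 95%, on counts rounded to whole numbers. They cover counting error only. A count of 0 was given a limit of 3 counts. For equal depth, cells were thinned at random to 639000 reads, which left out 4 control and 3 RO-3306 cells. A count was called fractional when over 1e-06 from a whole number. Doublets were not called, since each library holds 1 sorted cell. The calculation was tested on simulated data.

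All members were named, and of each pathway list the genes past the fold, at most 4 in a direction, and those over 500 CPM. Some genes that this rule takes are not reported here. Of the markers, those over 50 CPM and the defining ones at 0 were named. The 3 members with the highest CPM per kb were each given the 3 genes most like them. mRNA lengths came by symbol from GENCODE M21, with no coordinates, and promoters from RefSeq (GRCm38.p6). Alternatives used edgeR 4.0.16 and DESeq2 1.42.0 for scaling factors only.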

Additional observations from a re-analysis of the deposited data

Results flagged for a closer look

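Libraries left out for low counts held cathepsin reads that no comparison above uses. The 11 left-out RO-3306 libraries, with 1162603 counts in all, had 1905 counts of the 10 genes, or 1639 CPM (1566 to 1714). The 19 left-out control libraries, with 341166 counts, had 29, or 85.0 CPM (56.9 to 122). Of the RO-3306 counts, 77.9% came from the single library D5. Over the 11 libraries Ctsa was at 1012 CPM, with 1169.5 of its 1176.5 counts in D5, and had 0 counts in the left-out control libraries. Ctsd was at 267 CPM against 8.79 CPM, and 283.5 of its 310.5 counts came from D10. Ctsl was at 307 CPM against 17.6 CPM, with 315 of 357 counts from D5. These 4 values, the sum included, rest mostly on 1 library each, and exceed the level in the left-out control libraries. Ctsb went the other way, at 24.9 CPM (16.7 to 35.8) in RO-3306 libraries that were left out against 49.8 CPM (29.0 to 79.8) in such control libraries. Those intervals overlap, and the levels rest on 29 and 17 counts, with 10 of the 17 in the control library D4. Ctsz was at 27.5 CPM against 5.86 CPM, with 65.6% of its RO-3306 counts from the library B2. With all 96 libraries and no filter, the log2 ratio of the cathepsin sum was 1.36.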

How the results depend on the processing

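The cathepsin sum had a log2 ratio of 1.36, and stayed above 1.2 in all 16 alternatives. It was 1.52 with TMM factors, 1.38 with DESeq2 size factors, 1.35 when each cell's CPM was averaged, 1.47 without Ctsl, the member with the most counts, and 1.21 to 1.51 with each lettered set left out in turn. Among cells with at least 4500 genes at equal depth, an alternative chosen after seeing the data, it was 1.42. The median of the members with at least 5 CPM, 1.19, was 1.35 with TMM factors, 1.56 when cells were averaged, 1.50 after thinning, 1.42 in the cells with at least 4500 genes, 1.13 over all 10 members with no filter on low values, and 1.18 to 1.61 with each set left out. Ctsf entered as a 6th member when cells were averaged or thinned and without sets A, C or D: over the same 5 members the median was 1.31 averaged, 1.29 thinned and 1.12 to 1.37 with each set left out. TMM moved the median of all genes compared from -0.22 to -0.06. The number of members past the fold was 5, and 4 to 6 over the alternatives, with 0 in the lower direction. Ctsf was called where its mean reached 5 CPM or no minimum was set. Ctsb was not called when cells were averaged or thinned, and neither Ctsb nor Ctsz without set A. Of 90 values of the 5 abundant members under alternatives, 90 were above 0 and 84 at least 1, and those of Ctss lay between -1.01 and -0.32. The values are recomputed from the same cells and are not independent. Relative to genes of like length, Ctsa, Ctsb, Ctsd and Ctsz each gave the same value by the longest and by the principal transcript. No paired analysis was possible because each group is 1 sample and the labels do not say what the title letters and numbers mean. Ctsc, Ctsh and Ctsk had at most 1 count in a group, too few to compare, and Ctss rests on medians of 9.2 and 5.2 counts per cell.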
